A study of Xenopus laevis with 3 samples.

Results

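Anterior and posterior endoderm of Xenopus laevis tadpoles at stage 46 were compared on 2 spotted cDNA arrays, called A and B. Every spot was taken that the scanner software had found on both arrays. These were 16456 of the 21504 spots printed on each array. Of them, 14049 entered the test, because they stood above the local background on at least 2 of the study's 6 arrays. A usable gene name was given for 3625 tested spots, which share 1600 names. The study dissected the endoderm by hand from whole embryos at stages 30, 39 and 46 and cut it into an anterior and a posterior piece, with 2 arrays per stage. Per the labels, the anterior piece holds the forerunners of lung, oesophagus, stomach, duodenum, pancreas, liver and gallbladder, and the posterior piece those of the intestine. On all arrays the anterior RNA carried the red dye Cy5 and the posterior RNA the green dye Cy3. No dye was swapped, so region and dye cannot be told apart within a stage, although a dye effect that is the same at every stage cancels in a difference between stages. The labels name no treatment, strain or allele, and they do not say whether A and B came from separate dissections, so the p-values measure the spread between hybridisations, which may be technical.

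Xenopus tadpoles begin to feed at about this stage, and the gut tube has by then coiled and budded its accessory organs. The liver and the pancreas export large amounts of protein. Such proteins enter the endoplasmic reticulum through the Sec61 channel, are folded there by chaperones and by enzymes that form disulfide bonds, receive sugar chains, and leave in coated vesicles. The intestinal epithelium absorbs nutrients across a brush border, sealed by tight junctions and driven by the sodium gradient that the sodium pump maintains.

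Values are log2 ratios of anterior over posterior after background correction and loess normalisation within each array, so that 1 is a doubling in the anterior piece and a negative value means a higher signal in the posterior piece. Where 2 values follow a name, the first is from array A and the second from array B. A spot was called where limma's adjusted p was under 0.05. A name takes the value of its brightest tested spot. Names were cut to 40 characters in the files and often give the best match in another species, so spots of 1 name can be different genes. A mean is given with its standard error (SE) from the fit, with n = 2 arrays. In tissue pieces, fewer cells of a type and less RNA per cell cannot be told apart.

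Most of the regional differences were small. Of the tested spots, 7927 (56.4%) were called. Of all tested spots, 4331 (30.8%) were higher in anterior and 3596 (25.6%) were lower. Called spots over 2-fold numbered 190 higher and 146 lower, together 2.39% of those tested. Over 4-fold were 42 called spots, of which 31 were higher in anterior. The middle of the distribution was narrow, with the 5th and 95th percentiles at -0.55 and 0.58. Between arrays A and B the median absolute difference of a spot was 0.077, and no called spot had opposite signs on the 2 arrays. A call needs a mean of these arrays that is large against the spread, so opposite signs among called spots were unlikely beforehand. Among the 1600 names, 939 (58.7%) were called, 500 (31.2%) higher and 439 (27.4%) lower, with 35 and 24 of them over 2-fold. These shares are the background for the counts of each gene group. With array A left out the count of called spots was 4643, and with array B left out it was 4599, against 7927 with both. Of 257 named genes, 41 lost their call without array A and 48 without array B, none of them with a mean beyond 0.53 in size.

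**Figure D1:**
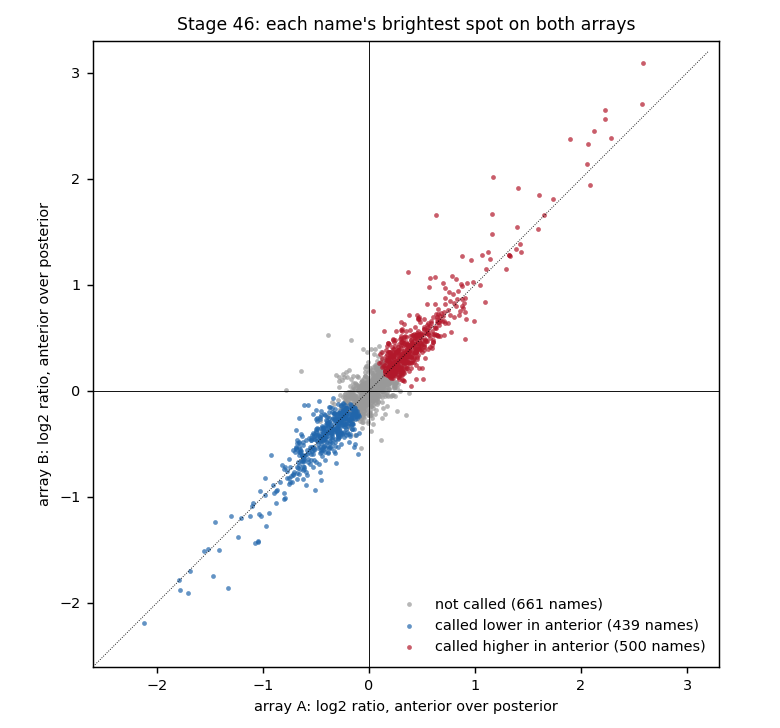
Log2 ratio of anterior over posterior on array A (horizontal axis) against array B (vertical axis) for the brightest spot of each of 1600 names. Points are coloured by whether limma called the name higher in anterior (500), lower (439) or neither; called names lie near the diagonal, in the same direction on both arrays.

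The 2 arrays gave median foreground intensities between 607 and 874 in the scanner's units, and 46.5 to 47.6% of spots stood above background in a given channel. Markers of anterior and posterior organs were measured in part. Endodermin, an early marker of endoderm, was higher in anterior at 0.40 and 0.32, and GATA-6b was not called at 0.12 and -0.25. Of 4 liver markers measured, serotransferrin was higher at 0.87 and 0.80, and fibrinogen and alpha-2-macroglobulin were not called. Complement C3 was lower on its brightest spot, at -0.63 and -0.62, but of its 7 spots 2 were higher and 3 lower. Both measured markers of lung, stomach and oesophagus were higher, SOX-2 at 1.17 and 2.02 and H,K-ATPase at 0.55 and 0.82. The H,K-ATPase name is a match to toad and does not say whether it is the gastric form. Of 3 names measured for intestine markers, the caudal homologue Xcad-1 was lower at -0.97 and -1.28, and villin was not called. The other, alkaline phosphatase, was the tissue-nonspecific form, which does not mark the intestine. It was higher, at 0.16 and 0.39. The brightest spots of the liver markers thus did not share one direction. Of 6 markers of exocrine pancreas 2 were measured, under 3 names. Amylase and pancreatic lipase related protein stood above background in neither region, and bile salt-dependent lipase was not called, at 0.06 and 0.39. Names of tissues other than endoderm also gave signals. All 8 markers of skeletal muscle were measured, under 13 names, of which 3 were higher in anterior, 5 were lower, and none was under background in both regions.

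**Figure D2:**
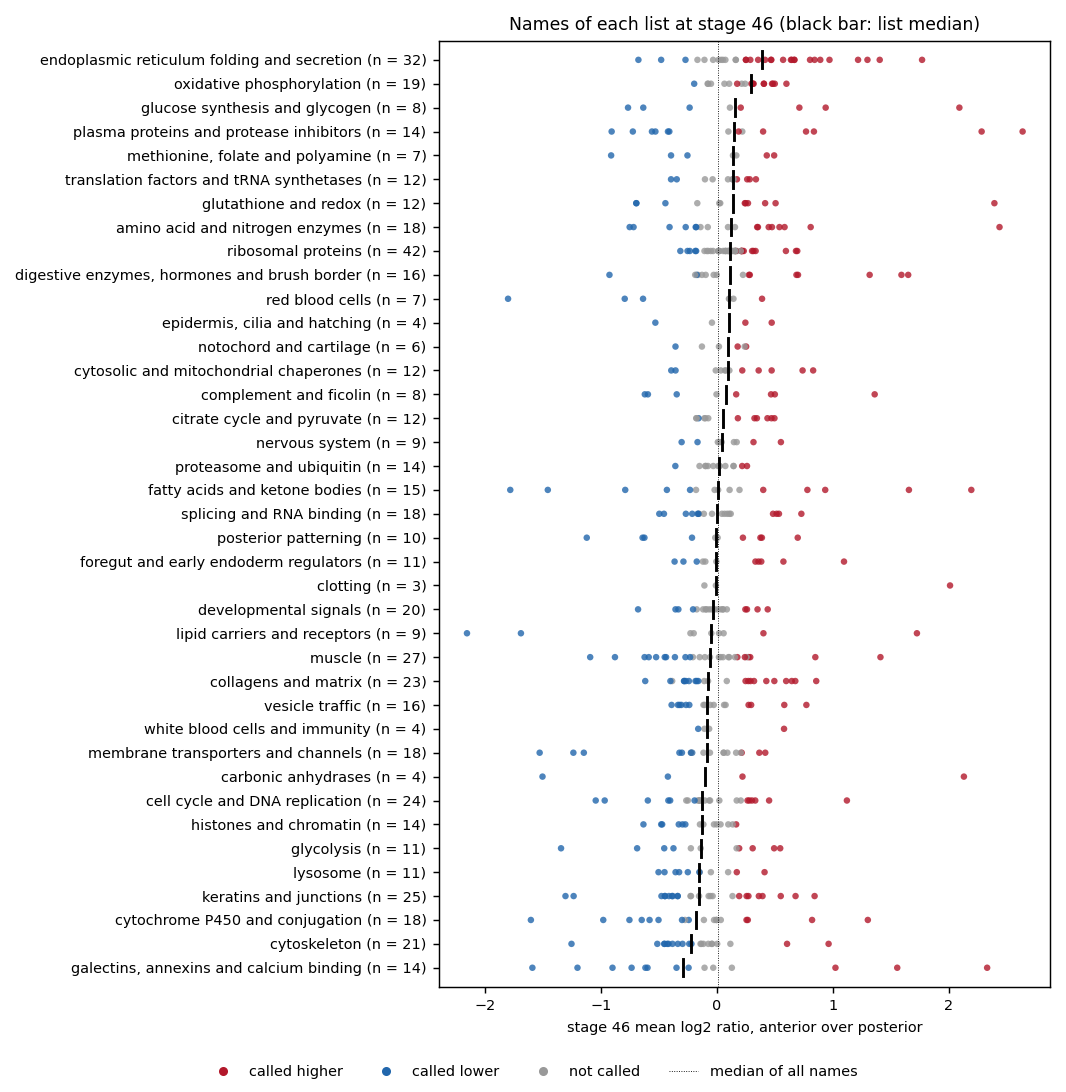
Log2 ratio of anterior over posterior (horizontal axis) for each name of 39 gene lists (rows), 1 point per name and a bar at the list's median. The list for the endoplasmic reticulum has the highest median, 0.39, and that of galectins, annexins and calcium binding the lowest, -0.30, against 0.01 over all names.

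Genes of the endoplasmic reticulum (ER) and early secretory pathway were the group with the highest median ratio, except under median centring, where oxidative phosphorylation had 0.44 against 0.42. Of 32 measured names, 20 were higher in anterior and 3 were lower, and the median was 0.39, against 31.2% higher and a median of 0.01 over all names. The high values ran from entry into the ER, through folding, to the addition of sugar chains. Names of the vesicle coats went both ways.

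The folding enzymes and chaperones of the ER had the highest values of the group. Protein disulfide isomerase A6, which forms and rearranges disulfide bonds, gave signals of 3017 in anterior and 906 in posterior on array A, and 3574 and 1021 on array B. The ratios were 1.73 and 1.81, a 3.41-fold difference with a mean of 1.77 ± 0.057 (SE, n = 2 arrays) and a limma adjusted p of 5.8e-07. Endoplasmin (GRP94), the ER form of HSP90, was among the brightest spots of the group, with 12095 against 4499 on array A and 13367 against 5122 on array B. Its ratios of 1.43 and 1.38 gave a mean of 1.41 ± 0.053 (adjusted p 1.19e-06). BiP (GRP78), the main HSP70 chaperone of the ER, stood at 1.32 and 1.28. The 150 kDa oxygen-regulated protein, a partner of BiP, stood at 0.84 and 0.94. Protein disulfide isomerase A3, which acts on glycoproteins, was at 0.67 on both arrays, with 5 of its 6 spots higher and none lower. The parent disulfide isomerase was at 0.48 and 0.45 and the ERp72 homologue at 0.44 and 0.39. Calnexin, the lectin chaperone of glycoproteins, was not called on its brightest spot, at 0.13 and -0.06, although 4 of its 9 spots were higher and none lower. The 47 kDa heat shock protein, a collagen chaperone sorted outside this list, was called lower, with a mean of -0.28. Its call was lost without array B.

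The machinery that brings proteins into the ER was higher in anterior as well. Signal recognition particle brings ribosomes to the ER membrane: its 72 kDa subunit was at 0.64 and 0.65, with all 5 spots higher, and its 68 kDa subunit at 0.36 and 0.22. The SEC61 complex chain, part of the channel, was at 0.92 and 1.02, and all 7 of its spots were higher. SEC61 gamma was at 0.22 and 0.49, and SEC63, which couples the channel to BiP, was not called at 0.17 and -0.14. Translocon-associated protein alpha, a membrane protein at the channel, was at 1.29 and 1.15, with all 4 spots higher. TRAM1, its neighbour in the membrane, was at 0.64 and 0.70. The 25 kDa subunit of signal peptidase, which trims the entry signal, was at 0.75 and 0.93. Every called name of this step was higher in anterior.

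Of the enzymes that attach sugars, ribophorin II stood at 0.46 and 0.68, an oligosaccharyltransferase name at 0.41 and 0.52, and dolichol-phosphate-mannose synthase at 0.30 and 0.20. All were called. Glucosidase II, which trims new sugar chains, was not called at 0.10 and 0.22. XBP1, the transcription factor that drives genes of the secretory pathway, stood at 0.66 and 0.62, with both spots higher. GDP-mannose 4,6-dehydratase, which makes the donor of fucose, lay outside the list and stood at 1.39 and 1.54.

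The coat and retrieval proteins did not share one direction. Coatomer alpha was higher at 0.25 on both arrays, whereas coatomer delta was lower at -0.59 and -0.77 and coatomer gamma-2 at -0.28 and -0.27. The second spot of coatomer delta was called higher, and the call of coatomer gamma-2 was lost without array A and without array B. The KDEL receptor, which returns escaped ER proteins from the Golgi, was lower at -0.51 and -0.45, with 3 of 6 spots lower and none higher. The cargo receptor p24 delta1 had 16 spots, and its brightest was at 0.85 and 0.75. Of these, 7 were higher and 4 lower, so the name has no single direction. Beyond the ER, 4 of 16 names of vesicle traffic were higher and 6 lower. Rab-27A, which acts in regulated secretion, stood at 0.57 and 0.98, and Rab-10 and Rab-6A, with 7 of 8 and 6 of 7 spots lower, stood at -0.38 and -0.30 and at -0.27 and -0.34. Without array A or without array B, only 1 of these names was called lower.

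**Figure D3:**
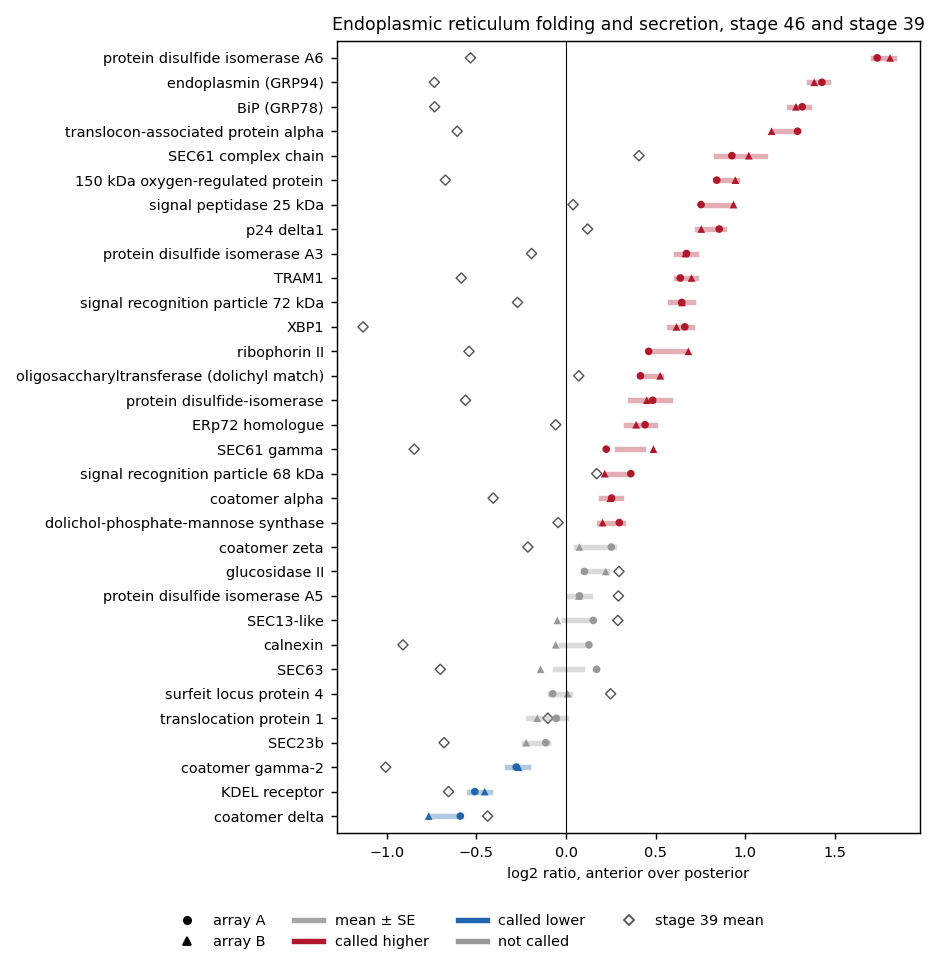
Log2 ratio of anterior over posterior (horizontal axis) for the 32 names of the endoplasmic reticulum list (rows). The circle is array A at stage 46, the triangle array B, the bar the mean ± SE of the fit, and the diamond the stage 39 mean. At stage 46, 26 names lie above 0, and 23 lie below 0 at stage 39.

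The ratios of this group were lower at the earlier stages. The median over the 32 names of the difference, stage 46 minus stage 39, was 0.70. By the limma contrast between the stages, 23 names differed upward and 1 downward. Among all 1585 names with a value at both stages, 32.7% differed upward and 21.4% downward. At stage 39 protein disulfide isomerase A6 had a ratio of -0.53, endoplasmin -0.73, BiP -0.73 and XBP1 -1.1. The differences of the first 3 were 2.30, 2.14 and 2.03 (adjusted p 1.5e-06, 1.5e-06 and 1.9e-06). Of the 32 names, 18 lay below 0 at stage 39 and above 0 at stage 46, as did 309 of all 1585 names. Against stage 30, 22 names differed upward and 4 downward, with a median difference of 0.46. That contrast uses the same stage 46 arrays, and over all names 26.2% differed upward and 28.2% downward in it. SEC61 complex chain and signal recognition particle 68 kDa were already above 0 at stage 39, at 0.41 and 0.17.

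Plasma proteins, many of them liver products, and protease inhibitors were split. Of 14 names, 6 were higher and 6 lower. Kininogen, the precursor of kinins, was 4.87-fold higher, with ratios of 2.12 and 2.45. Its posterior signals were not well above background on either array, and its anterior signals were above it on 1. Pentraxin, a lectin of the acute phase, stood at 0.72 and 0.82, with all 5 spots higher, and C-reactive protein, of the same family, at 0.16 and 0.22. On the other side, Kunitz-type protease inhibitor 1, an epithelial inhibitor of serine proteases, was lower at -0.87 and -0.94, with both spots lower. Proteinase alpha1 inhibitor III was lower at -0.68 and -0.78, and ferritin heavy chain, which stores iron, at -0.54 and -0.53, with 5 of 9 spots lower and none higher. Alpha-2-macroglobulin was not called, at 0.25 and 0.19.

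The complement and ficolin names went both ways, 4 of 8 being higher and 3 lower. Complement factor B, a protease of the alternative pathway, had the highest ratio, at 1.39 and 1.34. C3b/C4b inactivator (factor I), which cuts and silences C3b, stood at 0.47 and 0.53, complement C8 beta, of the membrane attack complex, at 0.41 and 0.53, and C9, of the same complex, at 0.15 and 0.18. Complement C3, the central component, was lower on its brightest spot, at -0.63 and -0.62, but its 7 spots ran from -0.70 to 1.39, with 2 higher and 3 lower. Ficolin 2, a lectin that starts the cascade, was at -0.66 and -0.53, with its other spot higher. Ficolin 1 was called lower with a mean of -0.35, a call lost without array A and without array B. Of the 8 names, 6 had a higher ratio at stage 46 than at stage 39, and none a lower one. C9 and factor I had stood at -1.1 and -1.4 at stage 39.

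**Figure D4:**
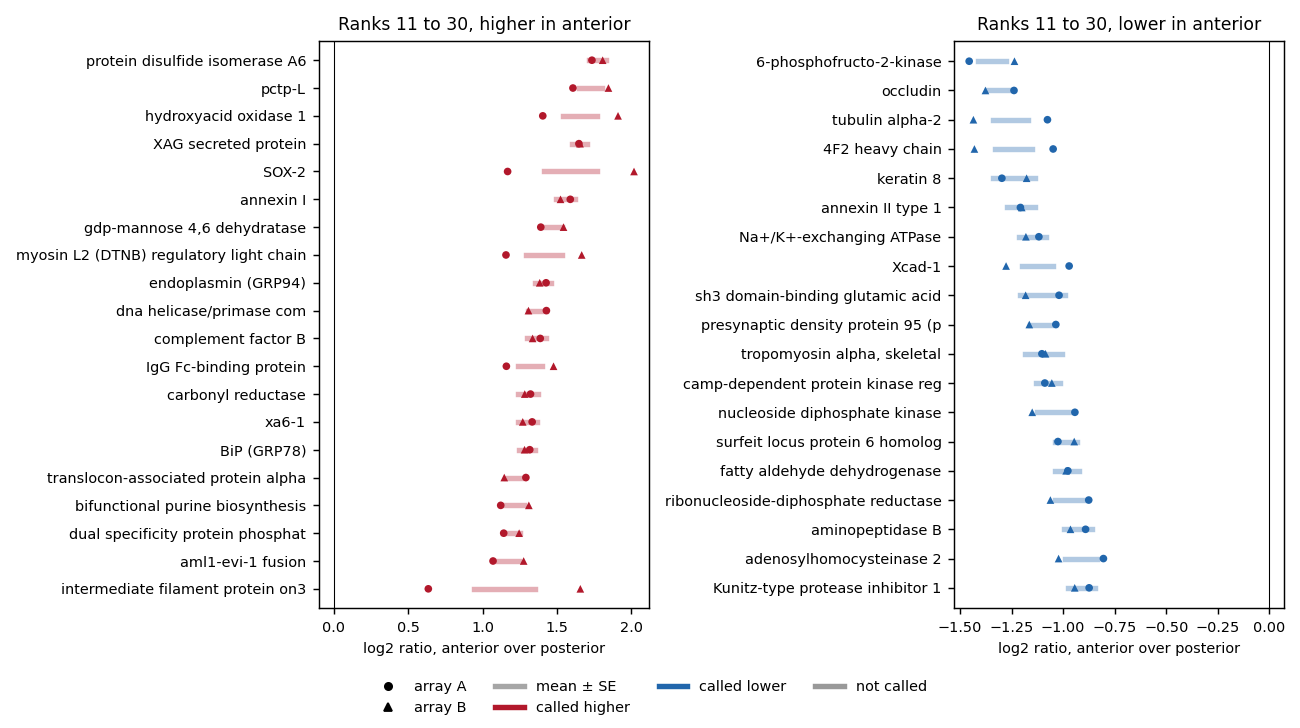
Log2 ratio of anterior over posterior (horizontal axis) on each of the 2 stage 46 arrays for the called names at ranks 11 to 30 in each direction (rows), 20 higher and 19 lower in anterior, with 1 of the 20 lower names not drawn. The points of arrays A and B lie close together for most names and far apart for intermediate filament protein ON3 (0.64 and 1.66) and SOX-2 (1.17 and 2.02); DNA helicase/primase, the cAMP-dependent kinase subunit and adenosylhomocysteinase 2 stand above background in neither region.

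The names at ranks 1 to 10 in each direction were of varied function. Among the higher ranks 1 to 10 beside kininogen was neutral trehalase (2.58 and 3.09, 7.13-fold), its posterior signal not being well above background. Coagulation factor XIII B (2.08 and 1.94), inter-alpha-trypsin inhibitor heavy chain (2.57 and 2.71), glutamine synthetase (2.23 and 2.65) and glutathione transferase omega 1 (2.23 and 2.57) were there too. So were galectin-3, succinyl-CoA:3-ketoacid-CoA transferase (2.07 and 2.33), carbonate dehydratase (1.89 and 2.37) and pyruvate carboxylase (2.05 and 2.13). Among the lower ranks 1 to 10 were the lipid carriers apolipoprotein C-I (-2.12 and -2.19) and apolipoprotein E (-1.69 and -1.70), glycerol-3-phosphate dehydrogenase (-1.79 and -1.78), annexin II type 2 (-1.32 and -1.86), iron uptake protein (-1.78 and -1.88), channel-activating protease 1 (-1.55 and -1.51), carbonic anhydrase VII (-1.52 and -1.49) and hydroxyacid oxidase 2 (-1.42 and -1.50). The other 2 spots of glycerol-3-phosphate dehydrogenase were higher. Vitamin D3 hydroxylase-associated protein was also lower, at -1.47 and -1.74, with neither region above background.

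The higher names at ranks 11 to 30 were of varied function, and the ER proteins among them are given above. The lipid transfer protein pctp-L stood at 1.61 and 1.85, a myosin L2 regulatory light chain at 1.16 and 1.67, and a spot named for an AML1-EVI-1 fusion at 1.07 and 1.28. DNA helicase/primase, above background in neither region, was at 1.43 and 1.31. XAG, a secreted protein first known from the Xenopus cement gland, had signals of 5975 against 1908 on array A and 9687 against 3076 on array B, and ratios of 1.65 on both arrays (mean 1.65 ± 0.053, adjusted p 5.8e-07). The IgG Fc-binding protein, a mucin-like protein of goblet cells in mammals, stood at 1.16 and 1.48, with 3 of 4 spots higher. The intermediate filament protein ON3 was higher on all 4 spots, but its brightest gave 0.64 on array A and 1.66 on array B, the widest gap between arrays among these names. Carbonyl reductase, a short-chain dehydrogenase, stood at 1.32 and 1.28, with all 4 spots higher. A bifunctional enzyme of purine synthesis stood at 1.12 and 1.31. The clone named Xa6-1, whose role is not described here, stood at 1.33 and 1.27, with both spots higher. A name for a dual specificity protein phosphatase stood at 1.14 and 1.25, and its 3 spots went both ways.

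The lower names at ranks 11 to 30 were also of varied function. Tubulin alpha-2 stood at -1.08 and -1.44, with 5 of 6 spots lower and 1 higher. Presynaptic density protein 95 was at -1.04 and -1.16. The cAMP-dependent kinase subunit (-1.09 and -1.06) and adenosylhomocysteinase 2 (-0.80 and -1.02) were lower too, both with neither region above background. The regulatory enzyme 6-phosphofructo-2-kinase, which makes an activator of glycolysis, had signals of 1821 in anterior and 4995 in posterior on array A, and 3363 and 7921 on array B. Its ratios were -1.46 and -1.24 (mean -1.35 ± 0.068, adjusted p 4.32e-06), with 3 of 6 spots lower and none higher. A name for SH3 domain-binding glutamic acid-rich protein was at -1.02 and -1.18, with all 3 spots lower. Nucleoside diphosphate kinase, which balances the nucleotide pools, stood at -0.94 and -1.15, and ribonucleoside-diphosphate reductase, which makes deoxynucleotides, at -0.88 and -1.06. Fatty aldehyde dehydrogenase, which oxidises long-chain aldehydes, was at -0.98 and -0.99, and aminopeptidase B at -0.89 and -0.96. Surfeit locus protein 6 was 1.98-fold lower on its brightest spot, at -1.03 and -0.95, the anterior signal not being well above background. Of its 4 spots 2 were lower and none higher, with a median of -0.068.

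Enzymes of glucose synthesis and glycogen, taken as 1 list, were divided between the pieces. Of 8 names in that list 4 were higher and 3 lower. Pyruvate carboxylase, given above, had the highest value, with all 3 spots higher but running from 0.17 to 2.09. Glycogen debranching enzyme, which releases stored glucose, stood at 0.82 and 1.06. Glycogenin-2, the primer of glycogen in liver, stood at 0.65 and 0.77, with all 3 spots higher. By contrast, glucose-6-phosphatase, the last step of glucose release, was lower at -0.93 and -0.61, with 2 of 4 spots lower and 1 higher. Phosphoenolpyruvate carboxykinase, which commits carbon to glucose, was lower at -0.16 and -0.31, a call lost without array A and without array B. Fructose-1,6-bisphosphatase was called lower at -0.71 and -0.56, with neither region well above background, so no fold is given. At stage 39 these last 3 names stood at -2.4, -1.9 and -1.6, and all 3 had a higher ratio at stage 46 by the contrast (adjusted p 6.2e-05, 1.5e-05 and 0.00032). Over the 8 names, 6 had a higher ratio at stage 46 than at stage 39 and none a lower one, with a median difference of 0.73.

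Glycolytic enzymes also split, 4 of 11 names being higher and 4 lower. Aldolase C, known as the brain form in mammals, was higher at 0.38 and 0.71. Aldolase B, known as the form of liver, kidney and small intestine in mammals, was lower at -0.58 and -0.79, with all 5 spots lower. The 2 forms therefore lay on opposite sides. Transaldolase, of the pentose phosphate pathway, was at 0.57 and 0.41. Aldolase B had stood at -2.2 at stage 39, a larger difference between the pieces than at stage 46.

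Lipid enzymes had high values at both ends. Of 15 names of fatty acid and ketone metabolism, 5 were higher and 5 lower. Hydroxyacid oxidase 1, a peroxisomal enzyme of liver in mammals, was 3.15-fold higher, at 1.40 and 1.91, but 1 of its 3 spots was called lower. The posterior signal of its brightest spot was not well above background. The reductase of 3-hydroxy-3-methylglutaryl-CoA, which limits cholesterol synthesis, stood at 0.78 and 1.09, and 3-hydroxyisobutyrate dehydrogenase, of valine breakdown, at 0.85 and 0.71. The dienoyl-CoA reductase named 2,4-dienoyl-CoA reductase, which acts on unsaturated fatty acids, was lower at -0.72 and -0.86, and very-long-chain acyl-CoA synthetase at -0.41 and -0.45.

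Of 18 names of amino acid and nitrogen metabolism, 8 were higher and 6 lower, and 2 or 3 were lower without array A or array B. Pterin-4a-carbinolamine dehydratase, listed as 4a-hydroxytetrahydrobiopterin dehydratase and needed to break down phenylalanine, stood at 0.82 and 0.80. Kynurenine 3-monooxygenase, of tryptophan breakdown, was at 0.54 on both arrays. Ornithine decarboxylase antizyme, which restrains polyamine synthesis, was lower at -0.79 and -0.72, with 6 of 8 spots lower and none higher. Its target, ornithine decarboxylase, was not called at 0.14 and 0.05. Guanidinoacetate N-methyltransferase, the last enzyme of creatine synthesis, was not called at -0.22 and -0.06, but had stood at -2.2 at stage 39. Arginase, of the urea cycle, stood above background in neither region.

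The respiratory chain names that were called were mostly higher in anterior, by small amounts. Of 19 names of oxidative phosphorylation, 11 were higher and 1 lower, the median was 0.30, and none passed 2-fold. ATP synthase gamma, of the rotating stalk, stood at 0.56 and 0.64. ATP synthase A chain, at 0.23 and 0.12, had 7 of 8 spots higher and none lower. The ADP,ATP carrier was the single name lower, at -0.13 and -0.27, a call lost without array A and without array B. In the citrate cycle, 6 of 12 names were higher and 1 lower, with a median of 0.05. Where spots had to be above background on both arrays, 4 were higher and 2 lower, and the median was -0.10. Malate dehydrogenase, at 0.53 and 0.47, had all 4 spots higher, and aconitase stood at 0.31 and 0.56. ATP-citrate lyase, which takes carbon out of the cycle for lipid synthesis, was the name lower, at -0.13 and -0.19, with 2 of 4 spots lower and 1 higher. Its call was lost under print-tip loess, under the block, and without any one array of stages 39 and 46. Without array B, 3 citrate cycle names were called higher, and aconitase was not.

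Ribosomal proteins were mostly not called: 12 of 42 names were higher, 5 lower and 25 neither. L15 stood at 0.75 and 0.64, L12 at 0.70 and 0.66, and S4 at 0.58 and 0.61. S3 was lower, at -0.29 and -0.34, a call lost without array A and without array B. These counts depended on the scaling: with each array's ratios centred on its median in place of loess, 28 names were higher and 1 lower, and without array A or array B 6 were higher. Nucleolar proteins of ribosome assembly went both ways or were not called. Dyskerin, which modifies ribosomal RNA, stood at 0.71 and 0.75 with all 3 spots higher, and fibrillarin, which methylates it, at 0.43 and 0.60. Nucleolin was not called, at 0.05 and 0.16. Nucleophosmin was lower on its brightest spot, at -0.17 and -0.16, while 5 of its 10 spots were higher. Among cytosolic and mitochondrial chaperones, 5 of 12 names were higher and 2 lower, with T-complex protein 1 zeta at 0.88 and 0.78 and mitochondrial stress-70 at 0.77 and 0.71.

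Calcium-binding and lectin names had the lowest median of the lists, -0.30, yet held some of the largest values in both directions. Of 14 names, 8 were lower and 3 higher. Where spots had to be above background on both arrays, carbonic anhydrases had the lowest median, -0.64, and this list -0.47. Annexins bind membranes when calcium rises. Annexin I had signals of 6497 in anterior and 2159 in posterior on array A, and 9124 and 3173 on array B. Its ratios were 1.59 and 1.52 (mean 1.56 ± 0.064, adjusted p 1.74e-06), and all 4 spots were higher. Annexin II type 1 lay opposite, with 1495 against 3452 on array A and 1567 against 3603 on array B. Its ratios were -1.21 and -1.20 (mean -1.20 ± 0.066, adjusted p 6.76e-06). The posterior signal was the higher of the pair on both arrays. Annexin XI was lower at -0.63 and -0.60 and annexin III was not called, at -0.12 and -0.09. The annexins measured thus fell on both sides.

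The other members of the calcium and lectin group were mostly on the posterior side. Galectins are secreted lectins that bind galactosides, and the named ones lay on both sides. Galectin-3 had the list's highest ratio, at 2.28 and 2.39, with both spots higher. Galectin-9 was lower at -0.71 and -0.77 and galectin-4, known from the gut epithelium of mammals, at -0.34 and -0.36. Calmodulin, the general calcium sensor, was lower at -0.55 and -0.65, and 11 of its 12 spots were lower and none higher. Sorcin, a calcium-binding regulator of calcium release, was 1.87-fold lower, at -0.98 and -0.83, with all 5 spots lower and the anterior signal not well above background. Calcyclin (S100A6), which can bind annexins, was 2.03-fold higher, at 1.05 and 1.00, with the posterior signal not well above background. Calpain, a calcium-dependent protease, was not called on its brightest spot and had 4 spots higher and 2 lower of 10.

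Keratins and junction proteins were divided, with 8 of 25 names higher and 10 lower. Without array A 5 were higher, and without array B 3. Keratins 8 and 18 are partners in the filaments of simple epithelia. Keratin 18 was higher, at 0.72 and 0.97, whereas keratin 8 was lower, with 11832 in anterior against 29077 in posterior on array A and 4331 against 9796 on array B. Its ratios were -1.30 and -1.18 (mean -1.24 ± 0.10, adjusted p 5.3e-05), and both spots were lower. Keratin 19, also of simple epithelia, was higher at 0.72 and 0.64, with all 3 spots higher. Names matched to other species could join different keratins, so this opposition holds for the spots and not with certainty for the gene pair. Intermediate filament protein ON3, which was not sorted into this list, was higher at 0.64 and 1.66, with all 4 spots higher.

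The tight junction names that were called were lower in anterior, apart from a claudin-like name. Occludin, a membrane protein of the tight junction, had 1394 against 3289 on array A and 1062 against 2757 on array B. Its ratios were -1.24 and -1.38 (mean -1.31 ± 0.060, adjusted p 2.89e-06). The second occludin spot was called higher, at 0.24. ZO-1, which anchors the junction to actin, was lower at -0.54 and -0.42, ZO-2 at -0.42 and -0.35, and cingulin, another plaque protein, at -0.30 and -0.38. Claudin-1, which forms the seal, was lower at -0.50 and -0.18, claudin-4 was not called at -0.13 and -0.18, and the claudin-like ZF4A22 was higher at 0.34 and 0.20. E-cadherin, of the adherens junction, was lower at -0.37 and -0.53. The gap junction proteins connexin 31 and connexin 30 were higher, at 0.55 on both arrays and at 0.25 and 0.27, although connexin 31 had 1 spot lower among 4. At stage 39, occludin, ZO-1 and cingulin had stood at 0.31, 0.13 and 0.29, and all 3 ratios were lower at stage 46 by the contrast (adjusted p 8.1e-06, 0.0017 and 0.0021).

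**Figure D5:**
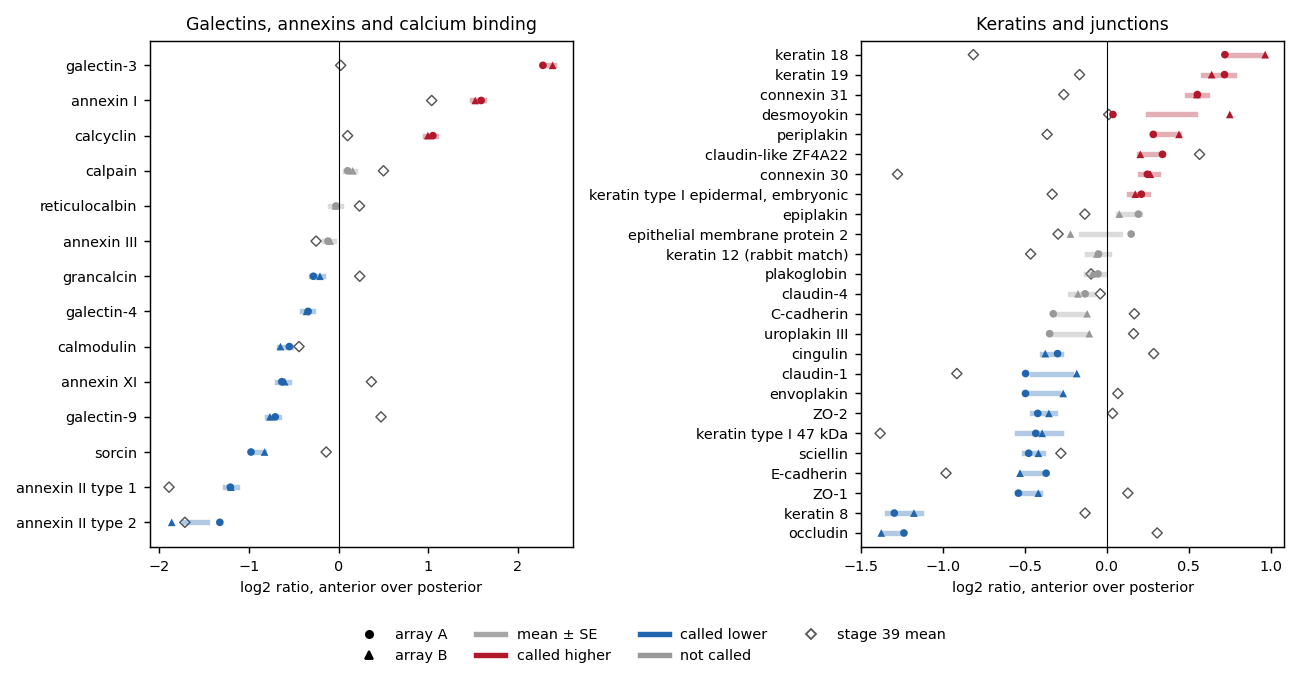
Log2 ratio of anterior over posterior (horizontal axis) for the names of the galectin, annexin and calcium list and of the keratin and junction list (rows). Circles are array A and triangles array B at stage 46, bars the mean ± SE, and diamonds the stage 39 mean; occludin stands at 0.31 at stage 39 and at -1.31 at stage 46.

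Proteins that handle actin and tubulin were mostly on the posterior side. Of 21 cytoskeletal names, 11 were lower and 2 higher, with a median of -0.22, and without array A or array B 7 were called lower. Profilin I, which feeds actin monomers to growing filaments, was lower at -0.36 and -0.54. Cofilin 1 and cofilin 2, which sever filaments, were lower at -0.31 and -0.37 and at -0.40 and -0.43, with no spot of either higher. Moesin, which ties actin to the membrane, was lower at -0.22 on both arrays, and a gelsolin-related name at -0.45 and -0.46. Thymosin beta-4, which holds actin monomers in reserve, was the opposite, at 0.62 and 0.59, with all 6 spots higher. T-plastin, a bundler of actin, was not called at -0.17 and -0.10, and villin, the brush border marker, was not called at -0.13 on both arrays.

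Muscle names gave signals in both pieces and had no common direction. Of 27 names, 6 were higher and 10 lower. Their summed signal was 50726 in anterior and 57223 in posterior on array A, and 59786 and 69816 on array B. Among the higher names, creatine kinase, which buffers ATP, stood at 0.62 and 1.08 with all 3 spots higher, and parvalbumin, a calcium buffer of fast fibres, at 0.22 and 0.33. Among the lower names, skeletal tropomyosin alpha stood at -1.10 and -1.09, smooth muscle alkali myosin light chain at -0.80 and -0.96, and desmin, the muscle intermediate filament, at -0.46 and -0.59 with all 4 spots lower. Skeletal alpha actin was lower at -0.46 and -0.44, with all 4 spots lower, and cardiac actin was higher at 0.31 and 0.27. Without array B, 3 muscle names were higher, and without array A the call of cardiac actin was lost. The part of muscle in the cytoskeletal and calcium results was not tested.

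Matrix names were as often higher as lower, 10 and 9 of 23. Fibronectin, which joins cells to the matrix, stood at 0.69 and 1.02 with both spots higher, and at -1.1 at stage 39. Lumican and collagen XII, which bind collagen fibrils, stood at 0.47 and 0.52 and at 0.52 and 0.68. SPARC, a calcium-binding matrix protein, was lower at -0.63 and -0.61, with both spots lower, and a matrix metalloproteinase at -0.35 and -0.45. Where a spot above background on both arrays was required, 4 were higher and 4 lower.

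Of 18 transporter names, 7 were lower and 3 higher, against 27.4% lower and 31.2% higher over all names. Their median was -0.09, against 0.01 over all names, and 3 or 4 were lower without array A or array B. Without either stage 30 array, 5 were higher. The Na+/K+-exchanging ATPase, which maintains the sodium gradient, gave 10723 in anterior and 23271 in posterior on array A and 11577 and 26243 on array B. Its ratios were -1.12 and -1.18 (mean -1.15 ± 0.065, adjusted p 8.02e-06), and of 19 spots under the name 12 were lower and 2 higher. At stage 39 the same spot had a ratio of -0.08, and the difference between the stages was -1.07 (adjusted p 7.6e-05). The 4F2 heavy chain, a partner subunit of amino acid exchangers, was lower at -1.05 and -1.43, with both spots lower. The sodium-dependent multivitamin transporter was lower at -0.18 and -0.42. The neutral amino acid transporter B(0) was higher, at 0.38 and 0.35. The pieces also differed in carbonic anhydrases. The XIV form was 1.34-fold lower, at -0.48 and -0.36, with the anterior signal not well above background. The VB form, of mitochondria in mammals, was called higher at 0.39 and 0.05. The call of the VB form was lost with plain background subtraction, with the stage 46 arrays alone, with the array letter as a block, without array A, and without any one array of stages 30 and 39. That of the XIV form was lost without array A.

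Lysosomal names were lower in 6 of 11 cases and higher in 2. Beta-hexosaminidase beta, which cuts sugars from glycolipids, was lower at -0.32 and -0.59 with both spots lower, and CD63, a lysosomal membrane protein, at -0.24 and -0.27, although 2 of its 8 spots were higher. The brightest spots of 3 other lower names stood above background in neither region. Requiring a spot above background on both arrays, or leaving out array A or array B, left 3 names called lower.

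Among enzymes that modify drugs and steroids, 8 of 18 names were lower and 4 higher. Cytochrome P450 4T2, of a family that oxidises fatty acids, was lower at -0.68 and -0.83 with both spots lower. A sulfotransferase matched to chicken was lower at -0.55 and -0.46, with 5 of 7 spots lower and 1 higher, and an N-hydroxyarylamine sulfotransferase at -0.49 and -0.67. UDP-glucose dehydrogenase, which makes glucuronic acid, was lower at -0.09 and -0.39 on its brightest spot and on all 3 spots, with a median of -1.32. The call of its brightest spot was lost without array B. Where a spot above background on both arrays was required, 5 names of this group were lower. Of 12 names of redox defence, 6 were higher and 3 lower, with 3 higher where array B was left out. The peroxide-removing 1-cys peroxiredoxin stood at 0.53 and 0.48, whereas catalase, which breaks down peroxide in peroxisomes, was lower at -0.44 and -0.45 and heme oxygenase at -0.68 and -0.71.

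Regulators of foregut and endoderm were few on the array. COUP-TF2, a nuclear receptor that acts in stomach development in mice, stood at 0.96 and 1.23 (mean 1.10 ± 0.090, adjusted p 5.01e-05). SOX-2 was 3.02-fold higher, with 1060 against 472 on array A and 1836 against 453 on array B, and all 4 spots were higher. The posterior signals of its brightest spot were not well above background. Krueppel-like factor 5, of gut epithelium in mammals, stood at 0.47 and 0.68. ATF4, which responds to stress in the ER and to lack of amino acids, stood at 0.35 and 0.42, and all 9 spots were higher. VegT and mixer, early endoderm regulators in Xenopus, were lower by small amounts, at -0.11 and -0.24 and at -0.29 and -0.44. The call of VegT was lost without any one array of stages 39 and 46, and that of mixer without array B. Another spot of VegT was called lower, at -0.55 and -0.53, whereas another spot of mixer was not called, at -0.07 and -0.23. Cerberus, a head inducer from the early anterior endoderm, was not called, at 0.01 and -0.21. COUP-TF2 and SOX-2 had stood at 1.1 and 1.85 at stage 39, and neither difference between the stages passed the test (adjusted p 0.80 and 0.42).

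Posterior patterning genes were not uniformly on the posterior side. Of 10 names, 4 were higher in anterior and 4 lower. Where spots had to be above background on both arrays, 1 was higher and 2 lower. Without array A 3 were higher and 3 lower, and without array B 2 and 3. The name posterior protein was called higher with a mean of 0.38, a call lost without array B. The median over its spots was -0.32. Xcad-1 had 492 against 964 on array A and 837 against 2029 on array B, and both spots were lower (mean -1.12 ± 0.075, adjusted p 1.82e-05). Its ratio differed from that of stage 39 by -0.12, which did not pass the test (adjusted p 0.38). The Hox genes, which specify position along the body axis, were lower for hox-A10 at -0.62 and -0.66, for HOXD4 at -0.53 and -0.72 and for hox-B9 at -0.25 and -0.18. They were higher for hox-B6 at 0.91 and 0.49, for hoxB3 at 0.42 and 0.35 and for hoxD9 at 0.23 and 0.22. The Hox names on each side thus included both low and high paralogue groups. Of the 10 names, 7 had a higher ratio at stage 46 than at stage 39 and 1 a lower one. At stage 39, hox-A10, HOXD4 and hox-B9 had stood at -1.5, -1.7 and -1.1.

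Most signalling genes were not called, 12 of 20. Frizzled 7, a Wnt receptor, was higher at 0.48 and 0.40, and BMP1, a protease that frees BMP from chordin, at 0.32 and 0.38. Smoothened, the transducer of hedgehog signals, was 1.6-fold lower, at -0.66 and -0.70, with the anterior signal not well above background. Patched 2, a hedgehog receptor, was higher at 0.30 and 0.22. The call of patched 2 was lost without array A and without array B, and that of BMP1 without array B. Of the signalling names, 2 were higher without array A and 1 without array B. BMP4, BMP7 and Wnt-11 were not called, all between -0.13 and 0.08 on each array. In the list of digestive enzymes, hormones and brush border, 7 of 16 names were higher and 2 lower. That list also holds SOX-2, a transcription factor, among the higher names. Somatostatin 1, a hormone of pancreas and stomach, stood at 0.70 on both arrays. An H,K-ATPase named from toad stood at 0.55 and 0.82, with 5 of 6 spots higher and none lower. It stood at -1.2 at stage 39, and the name does not say whether it is the gastric form.

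Cell division genes showed no common direction, with 6 of 24 names higher and 6 lower, and 3 higher without array B. Thymidylate synthase, of DNA precursor synthesis, stood at 0.51 and 0.39, with 6 of 8 spots higher and none lower. BUB3, of the spindle checkpoint, stood at 1.10 and 1.14 on its brightest spot, while its other 3 spots were not called. CDC2, the mitotic kinase, was lower at -0.17 and -0.22, with 5 of 10 spots lower and 1 higher, and cyclin I at -0.65 and -0.55. Histone and chromatin names were lower in 6 of 14 cases and higher in 1. Histone H1 zero, the linker histone of resting cells, was lower at -0.43 and -0.53 with both spots lower, and histone H5A, known from red cells of birds, at -0.61 and -0.66. Without array A 3 names of this group were lower, and without array B 2. Red cell names had a summed signal of 9410 in anterior and 14783 in posterior on array A, and 12545 and 20664 on array B. Without erythrocyte membrane protein 7 these sums were 7499 and 8558 on array A, and 9946 and 10947 on array B. Of these 7 names, 3 were lower and 1 higher. Rh type B glycoprotein, put in this list by its name, stood at -0.69 and -0.58. The red cell markers globin, band 3 and carbonic anhydrase II were not among the tested names. The sums therefore do not measure the amount of blood in the pieces. The part of red cells in these results was not tested.

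Names with several spots show how far a value holds beyond 1 clone. Of 417 names with 3 or more tested spots, 268 had called spots in 1 direction, 129 in both and 20 in none, and for 57 every spot was called the same way. SOX-2, annexin I, SEC61 complex chain and carbonyl reductase were higher on every spot, with medians of 1.18, 1.66, 0.90 and 1.40. Sorcin and skeletal actin were lower on every spot, with medians of -0.85 and -1.02. Spots of glycerol-3-phosphate dehydrogenase ran from -1.78 to 0.82, and those of calpain from -0.55 to 1.59. Why spots of 1 name differ was not tested.

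Stage 46 differed from the earlier stages over a large share of spots. Of 13870 spots with a value at both stages, 6920 (49.9%) had a different ratio at stage 46 than at stage 39, and of 13811, 7301 (52.9%) had a different ratio than at stage 30. Both contrasts use the same stage 46 arrays. On the stage 30 arrays many spots had saturated pixels, 1482 and 778, against 29 and 46 on the stage 46 arrays. Muscle names had 13 of 26 ratios higher and 7 lower at stage 46 than at stage 39, whereas against stage 30 5 of 27 were higher and 14 lower. For the 19 respiratory chain names these counts were 5 higher and 3 lower against stage 39, and 10 higher and none lower against stage 30. The 21 cytoskeletal names had 7 higher and 7 lower against stage 39, and 5 higher and 11 lower against stage 30. Over all names, 32.7% were higher and 21.4% lower against stage 39. Against stage 30 these shares were 26.2% and 28.2%.

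The authors' deposited table gives 1 ratio per spot for stage 46, with no SD. Over 13510 spots its log2 ratio correlated with the mean of arrays A and B at 0.978 across spots, which are not independent replicates. It placed 194 spots above a ratio of 2 and 207 below 0.5. All 323 spots called over 2-fold here that have an authors' ratio had the same direction in it. Per the labels that ratio was made from both arrays, the same data as here. The agreement was therefore likely beforehand and is no independent support.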

How the data were processed

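RNA of anterior and posterior endoderm was hybridised to spotted cDNA arrays, 2 arrays for each of 3 stages. Per the labels' protocols, total RNA was extracted with TRIZOL and lithium chloride, primed with oligo(dT), and scanned on a GenePix 4000B with the gain of each slide set by the first sign of saturation. The deposited intensities are the median pixel values of each spot and its local background, not normalised, per the file headers. The deposited percent of saturated pixels and the deposited score for spots found or not found come from the same scans, per the file headers. The authors also deposited 1 ratio per spot and stage, made in GeneData Refiner and Expressionist from both arrays per the labels; no software version or normalisation is named there.

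Intensities were corrected by normexp (offset 50) and normalised by loess within each array (span 0.3), with weight 0 for control spots and spots not found, in limma 3.58.1 (R 4.3.3). Arrays were not scaled to each other. A signal was well above background where the median exceeded the local background median by 2 SD of the background. A spot was tested if either channel passed this on 2 or more of the 6 arrays and both stage 46 arrays gave it a value. One linear model with a mean per stage (3 residual degrees of freedom, 5.04 from the prior) and eBayes gave two-sided p-values, adjusted by Benjamini-Hochberg over all spots, threshold 0.05. In data simulated at 14049 spots, with 200 changed at each size, this recovered 74% of changes of 0.5 and 96% of changes of 1 on the log2 scale. There were 9 false calls. In the real data 7927 spots were called, far more than were changed in the simulation, so these figures do not give the error rate of the real calls. Where a region was not well above background on either stage 46 array, the fold was computed with the lowest signal well above background on that array, or the spot's own if higher. The spot's own was the higher for trehalase, kininogen, SOX-2, hydroxyacid oxidase 1, sorcin and surfeit locus protein 6. It was also the higher for calcyclin, carbonic anhydrase XIV and smoothened. The folds of all these names are therefore plain ratios and not lower bounds. The number of arrays limits the precision.

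Spots under a name were ranked by brightness over both channels. The rule for named genes took ranks 1 to 30 in each direction, up to 3 called names per direction and the brightest uncalled name of each list, and names with several spots. One lower name of these ranks is not described, only part of the list names is given, and other names are examples chosen after their values were seen. The gene lists were sorted by hand from name matches, because matching by words had put wrong names into them. The genes and lists were chosen with earlier results of these data known. The array letters were checked for pairing: the correlations of the A minus B differences between stages were -0.0957, -0.0436 and 0.0361. No shared effect of the letter was seen across spots. These values cannot show whether arrays of 1 letter share a batch or dissection. Alternatives covered background correction, normalisation, filters, saturation, the arrays used and the spot that stands for a name.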

Additional observations from a re-analysis of the deposited data

Results flagged for a closer look

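The ratio of anterior over posterior differed most between stages 46 and 39 for the following names, by the limma contrast between the stages over all spots. The 5 names with the largest rise and the 5 with the largest fall are given. Coagulation factor XIII B stood at -1.43 at stage 39 and at 2.01 at stage 46, a difference of 3.44 (adjusted p 1.37e-06), so the piece with the higher signal was not the same at the 2 stages. The regulatory myosin light chain L2 also lay on opposite sides, with -1.71 and 1.41 and a difference of 3.12 (adjusted p 8.76e-06). Neutral trehalase, the brush border enzyme that splits trehalose, differed by 2.84 (adjusted p 7.35e-06), and its posterior signal at stage 46 was not well above background. Glutamine synthetase differed by 2.49 (adjusted p 7.29e-06), and 6 of its 7 spots were called higher in anterior than in posterior at stage 46. Kininogen differed by 2.44 (adjusted p 1.81e-05).

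In the other direction, occludin differed by -1.61 (adjusted p 8.09e-06), from 0.31 at stage 39. Carbonic anhydrase VII differed by -1.60 (adjusted p 0.000405), with a value on only 1 stage 39 array. Channel-activating protease 1, which activates the epithelial sodium channel, differed by -1.46 (adjusted p 1.13e-05), from -0.07 at stage 39. The spot matched to an AML1-EVI-1 fusion was higher in anterior at both stages, at 2.60 and 1.17, and differed by -1.42 (adjusted p 2.87e-05). Erythrocyte membrane protein 7 differed by -1.37 (adjusted p 2.91e-05), from -0.44 at stage 39.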

How the results depend on the processing

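Of 7 counts of called spots, those over 2-fold moved by less than 1.5 times under every alternative. Where a spot had to be above background on both stage 46 arrays, fewer spots were tested, and 5096 were called, 2140 of them lower in anterior, with 4343 differing from stage 39 and 4703 from stage 30. With each array left out in turn, called spots ranged from 4599 to 8718, higher ones from 2523 to 4709 and lower ones from 2028 to 4009, the low values coming from leaving out a stage 46 array. With the array letter as a replicate block 7540 spots were called, 4106 higher and 3434 lower, although no shared effect of the letter was seen. Of 257 named genes, 250 kept their call and direction under this block, 211 without stage 46 array A and 200 without array B. The authors' deposited ratios, made from the same arrays, had the same sign for 242 of 251, and the other 9 were not called.

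The direction reversed under print-tip loess for histone H1x (-0.068) and neurexin II (0.0012). It reversed with the median over all spots of a name for 26S regulatory subunit 8 (0.37), BUB3 (-0.089), connexin 31 (-0.062), dual specificity phosphatase (-0.12), FK506-binding protein (0.19), glycerol-3-phosphate dehydrogenase (0.52), mitochondrial thioredoxin (0.43), monocarboxylate transporter 4 (-0.18), posterior protein (-0.32), triose-phosphate isomerase (0.22) and UVS.2 hatching enzyme (-0.065), whose spots differ. The cause was not tested for the first pair. Over all alternatives the ER list held 15 to 22 names higher and 2 to 5 lower. The median of all spots was 0.0117 under median centring, 0.0102 under print-tip loess and 0.0225 with the arrays scaled to 1 spread. It was 0.00873 without the filter on dim spots and 0.0424 where spots had to be above background on both arrays. The share of higher calls lay between 52.2 and 58% over all settings. Signals near background limit small differences.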

Other observations

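Several names outside the lists described above also had called differences. Trehalase was 7.13-fold higher in anterior, with ratios of 2.58 and 3.09 on arrays A and B and both spots higher. Its posterior signal was not well above background. A name for an iron uptake protein was lower, with 867 in anterior and 2983 in posterior on array A and 922 and 3383 on array B, and ratios of -1.78 and -1.88. A spot named for presynaptic density protein 95 was lower at -1.04 and -1.16.

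Genes of the nervous system were called higher for 2 of 9 names and lower for 2. Synaptotagmin I, the calcium sensor of vesicle release, stood at 0.52 and 0.58, and syntaxin 1, of the same fusion step, at -0.30 and -0.31. The call of syntaxin 1 was lost without any one array of stages 39 and 46. The summed signal of these 9 names was 5396 in anterior and 5212 in posterior on array A, and 8040 and 7942 on array B. Of 18 names of splicing and RNA binding, 4 were higher and 6 lower, with poly(A)-binding protein at 0.61 and 0.46 and matrin 3 at -0.55 and -0.45. Of 14 proteasome and ubiquitin names 11 were not called.

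Most of the large differences have no usable name. Of the 336 spots called over 2-fold, 215 had none. Of the same 336, 23 stood above background in neither region, and in 56 only the region with the higher signal stood above it.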
